A study of Danio rerio with 2 samples.

Results

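Heat shock proteins and DnaJ chaperones were compared between a library of lri35 mutant zebrafish larvae and a library of their wild-type siblings. The genes were chosen by symbol from the authors' deposited expression table. Every row was taken whose symbol begins with hsp or dnaj, in any case, together with rows named hsf1, bag3, stip1, unc45b or serpinh1b. Of 33733 rows, 96 carried such a symbol, and 85 of these averaged 1 FPKM or more across the 2 libraries (FPKM is a fragment count scaled to gene length and to the size of the library). These 85 rows are described below, beside the 19327 rows of the table that did so.

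RNA came from whole larvae of the AB/TL strain at 5 days post fertilization. The wild-type library was made from a pool of 20 clutchmates with wild-type genotype, and the mutant library from a pool of 20 larvae homozygous for lri35, with no other allele or treatment named for either. The sample labels write the allele as lir35. The affected gene is not given in the labels, so no targeted gene could serve as a check of them. With 1 library per genotype there is no replicate error, no test across samples can be made, and larval pool, library preparation and genotype cannot be told apart. In whole larvae, fewer cells of a type and less RNA per cell cannot be told apart either.

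Chaperones bind unfolded or partly folded proteins and keep them from aggregating. HSP70 proteins bind short hydrophobic stretches in cycles driven by ATP, J proteins (the DnaJ family) deliver substrates to them and start ATP hydrolysis, and nucleotide exchange factors end the cycle. HSP90 acts later, on receptors, kinases and myosin, small heat shock proteins hold unfolded proteins without ATP, and the mitochondrial chaperonin encloses them in a chamber. Many genes of the family are switched on by the transcription factor Hsf1 when cells are stressed, while others are expressed at all times or serve 1 compartment, such as the endoplasmic reticulum, or 1 tissue, such as muscle.

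Deposited FPKM summed to 875340 for wild type and 874244 for the mutant. The chaperone rows held 0.539% and 0.537% of it, a summed level of 4715 FPKM in wild type and 4698 FPKM in the mutant. Absolute depth is unknown. Among 350 rows averaging 0.3 FPKM or less, the commonest ratio of mutant to wild-type FPKM was 0.810, and its bin held 29.7% of them. Such a ratio would arise if the mutant library held 1.23 times as many counted fragments as the wild-type library. Markers of tissues that a whole larva holds were listed in both libraries, with summed levels of 57627 FPKM in wild type and 58468 FPKM in the mutant for 21 fast muscle genes, and of 9074 and 7951 FPKM for 14 lens genes. The lists of 14 exocrine pancreas genes and 8 red blood cell genes stood lower in the mutant, at 10559 and 4358 FPKM and at 1814 and 909 FPKM.

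Most chaperone genes had close levels in the 2 libraries. The difference between the libraries was measured as log2((mutant FPKM + 1)/(wild-type FPKM + 1)), and a row was counted as higher or lower in the mutant library when it passed 2-fold on this scale. The added 1 FPKM understates the difference of low genes, and folds given for single genes below are plain ratios of the deposited values. By this rule 2 of 85 chaperone rows were higher in the mutant library (2.35%, against 2.95% of all rows), 1 was lower (1.18%, against 3.22% of all rows) and 82 were within 2-fold. In either direction 3.53% of the chaperone rows and 6.17% of all rows passed. At a threshold of 1.5-fold, 6 chaperone rows were higher (7.06%, against 8.03% of all rows) and 2 were lower (2.35%, against 9.38% of all rows). The median difference of the chaperone rows was 0.10, with quartiles of -0.09 and 0.28, and that of all rows was -0.01, with quartiles of -0.26 and 0.23. The difference was above 0 in 52 of the 85 rows (61.2%, against 49.1% of all rows) and below 0 in 33. The same 49.1% is the share to set beside each count of rows above 0 given below, but it is not matched to level. The median of all rows was -0.05 at means of 1 to 5 FPKM and 0.03 at 20 FPKM or more. Likewise, 6.17% of all rows is the share to set beside each statement below on rows of a class or list past 2-fold. At that share few or no rows of a short list would pass, so none passing says little about the list.

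**Figure D1:**
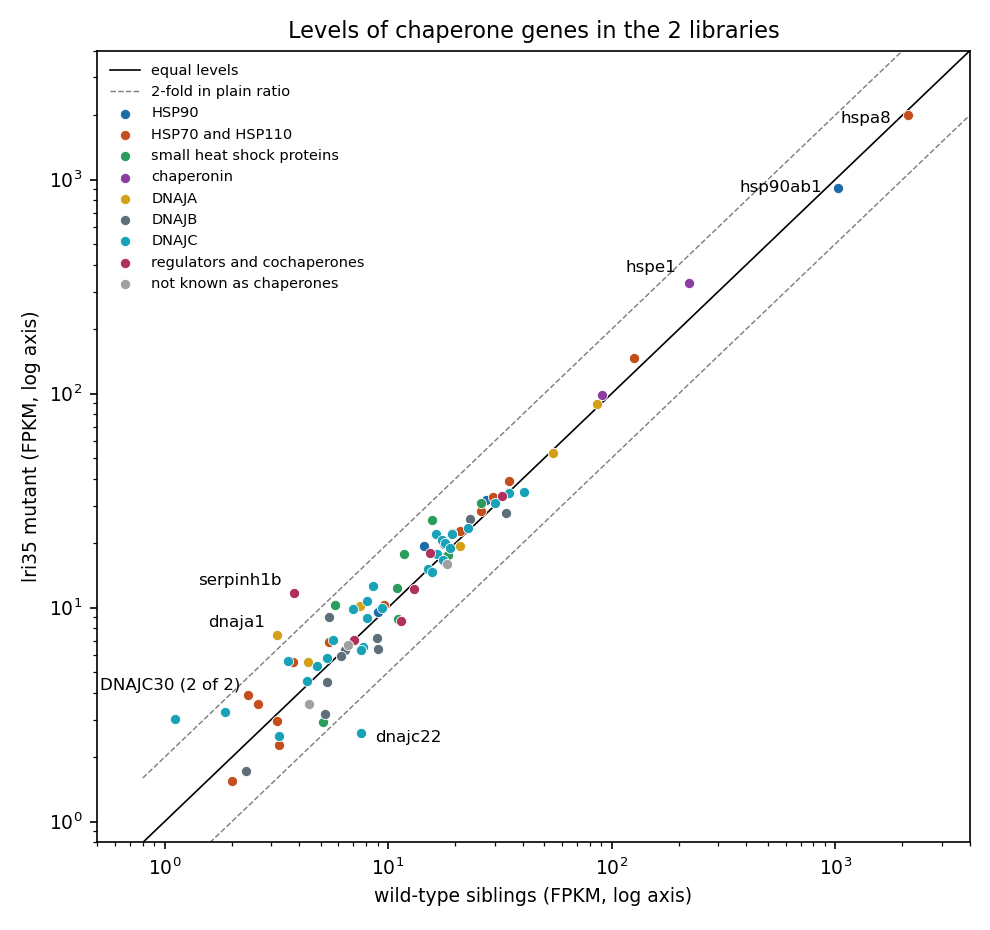
Levels of the 85 chaperone rows, with wild type on the horizontal axis and the mutant on the vertical axis (both FPKM, log scale), coloured by chaperone class. The solid line marks equal levels and the dashed lines a plain 2-fold ratio. Most points lie close to the solid line over the whole range, up to hspa8 at 2126 and 2014 FPKM, while serpinh1b, dnaja1, DNAJC30 (2 of 2) and dnajc22 lie outside the dashed lines.

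The size of the differences depended on the level of the gene. Among rows with a mean of at least 5 FPKM, 2 of 68 chaperone rows were higher and 1 was lower, against 1.37% and 1.71% of all rows at that level (3.08% in either direction). None of the 24 rows with a mean of at least 20 FPKM passed 2-fold, against 2.1% of all rows at that level, and their median absolute log2 difference was 0.15 (0.16 over all such rows). The 3 rows that passed lay among the 44 with a mean of 5 to 20 FPKM (6.82%, against 3.59% of all rows). None of the 17 rows between 1 and 5 FPKM passed, against 10.8% of all rows, although their median absolute log2 difference was 0.33, as it was over all rows of that level. The members just above the limit of 1 FPKM were hsp70l with a mean of 1.77 FPKM, dnajb5 with 2.02 and DNAJC30 (2 of 2) with 2.07. Just below it were dnajc5b with 0.970, hsph1 with 0.927 and DNAJC14 with 0.493.

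The largest difference belonged to serpinh1b (chromosome 15, 28732297 to 28736597 on the Zv9 build), which encodes Hsp47, the chaperone of the endoplasmic reticulum that binds procollagen. Its level was 3.78 FPKM in wild type and 11.7 FPKM in the mutant, a log2 difference of 1.41 and a ratio of 3.09. The paralog serpinh1a stood at 6.27 FPKM in wild type and 9.12 FPKM in the mutant, so the paralog that was the lower in wild type was the higher in the mutant. The serpinh1a row shares its region with other rows, so its level and this change of order are less certain. In the authors' deposited table serpinh1b had a p-value of 0.0174, the smallest of all chaperone rows tested there.

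The second was dnaja1 (chromosome 1, 45458475 to 45469909 on Zv9), a J protein of the cytosol that works with constitutive HSP70. It was listed at 3.19 FPKM in wild type and 7.46 FPKM in the mutant, a log2 difference of 1.01 and a ratio of 2.34. In the authors' deposited table its p-value was 0.0247. The only row lower in the mutant by more than 2-fold was dnajc22 (chromosome 23, 27937271 to 27943198 on Zv9), a membrane-spanning J protein whose fly homolog, wurst, is needed for endocytosis in the airways. Its level was 7.57 FPKM in wild type and 2.59 FPKM in the mutant, a log2 difference of -1.26, or 2.93-fold lower, and in the authors' deposited table its p-value was 0.0442. Each of these 3 rows was alone in its genomic region, with no other row of the table over the same coordinates.

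The authors' deposited table tested 77 of the 85 rows, and 3 of them (3.90%) had a p-value below 0.05, against 2.94% of all 14574 rows tested there. After the adjustment made in the authors' deposited table, all 77 rows had a q-value of 0.994 and none was below 0.05, while 18 rows of the whole table (0.124%) were. These p-values compare 2 libraries and cannot measure the spread between animals.

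HSP90 genes differed little. The 4 rows had differences from -0.18 to 0.39 with a median of 0.14, and none passed 2-fold. Nearly all of their RNA came from hsp90ab1, the constitutive cytosolic form, with 1035 FPKM in wild type and 915 FPKM in the mutant. The inducible form hsp90aa1.1, which zebrafish skeletal muscle uses to fold myosin, was at 14.5 FPKM in wild type and 19.4 FPKM in the mutant, 1.34-fold higher. Its tandem neighbour hsp90aa1.2, 689 bases away on chromosome 20, was at 8.99 FPKM and 9.53 FPKM. These near-identical genes can share reads, and no label or header says how such reads were assigned. The form of the endoplasmic reticulum, hsp90b1, was at 27.5 FPKM in wild type and 31.8 FPKM in the mutant. Thus 3 HSP90 genes were somewhat higher in the mutant library and the most abundant was lower, so that the class sum went from 1086 FPKM in wild type to 976 FPKM in the mutant.

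HSP70 and HSP110 genes showed the same arrangement, with a single gene holding most of the RNA. hspa8, the constitutive cytosolic HSP70 (Hsc70), was at 2126 FPKM in wild type and 2014 FPKM in the mutant. It ranked 78 among all rows of the table in both libraries, and its share of the summed chaperone level was 45.1% for wild type and 42.9% for the mutant. The 14 rows of the class ranged from -0.37 to 0.54 with a median of 0.13, and none passed 2-fold. Without hspa8 the class summed to 269 FPKM in wild type and 307 FPKM in the mutant, 1.14-fold higher, and 10 of these 13 rows lay above 0.

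HSP70 forms of single organelles were slightly higher in the mutant library. The mitochondrial form hspa9 (mortalin), part of the motor that draws proteins into the matrix, was at 126 FPKM in wild type and 147 FPKM in the mutant. hspa5 (BiP), which folds proteins in the endoplasmic reticulum, was at 34.6 and 38.9 FPKM, and hspa13, which resides there as well, at 5.42 and 6.92 FPKM. These 3 ratios lay between 1.12 and 1.28. The highest was that of hspa13, whose region also holds other rows, among them si:ch211-207n23.2 at 61.7 and 43.8 FPKM, so its level is less certain.

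The HSP110 genes, whose products exchange nucleotides on HSP70, were nearly level. hspa4a stood at 26.1 FPKM in wild type and 28.2 FPKM in the mutant, hspa4b at 29.6 and 32.7 FPKM, and HSPA4L at 9.60 and 10.3 FPKM. hsph1, another HSP110 gene, was below the limit at 0.966 and 0.887 FPKM. hspa14, which in human cells sits with the J protein Dnajc2 on the ribosome, was at 21.0 and 22.7 FPKM. None of these genes differed by more than 1.11-fold in plain ratio.

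The largest differences of the class belonged to hspa12b and hspa12a, distant relatives of HSP70. hspa12b, expressed in blood vessel lining cells of zebrafish embryos, was at 2.35 FPKM in wild type and 3.89 FPKM in the mutant, 1.65-fold higher, but its region also holds cct7, at 140 and 161 FPKM. hspa12a was at 3.76 FPKM in wild type and 5.58 FPKM in the mutant, 1.48-fold higher. Both remained within 2-fold on the scale of the rule.

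The heat-inducible HSP70 genes were expressed at low levels in both libraries. hsp70l, the gene whose promoter is widely used for heat-shock transgenes in zebrafish, was at 2.001 FPKM in wild type and 1.55 FPKM in the mutant. hsp70.2 was at 3.19 and 2.96 FPKM, and hsp70.3 at 2.63 and 3.55 FPKM. The hsp70.2 and hsp70.3 rows share a region with each other and with atp2a1, the calcium pump of fast muscle, at 2655 and 2268 FPKM. The levels of these near-identical HSP70 genes are uncertain for that reason, and their directions were mixed. A weak row named HSPA8 (1 of 2), whose symbol is that of the constitutive form, was at 3.24 FPKM in wild type and 2.29 FPKM in the mutant, 1.41-fold lower.

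Small heat shock proteins had the widest range of differences among the HSP classes. The 8 rows placed there by deposited symbol ranged from -0.64 to 0.74 with a median of 0.20, and none passed 2-fold. Together they summed to 105 FPKM in wild type and 127 FPKM in the mutant, 1.21-fold higher. The highest difference was that of hspb2, a muscle form, at 5.77 FPKM in wild type and 10.3 FPKM in the mutant, 1.78-fold higher. hspb9 stood at 15.7 FPKM in wild type and 25.7 FPKM in the mutant, 1.64-fold higher, and hspb15 at 11.8 and 17.9 FPKM, 1.51-fold higher. The most abundant, hspb1 (Hsp27), which binds actin filaments as well as unfolded proteins, was at 26.0 FPKM in wild type and 31.0 FPKM in the mutant.

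The forms typical of muscle differed in direction. Against hspb2, its partner hspb3 was lower in the mutant library, at 5.12 FPKM in wild type and 2.94 FPKM in the mutant, 1.74-fold lower. The 2 proteins form a complex with each other in mammalian muscle. hspb7, a heart form, was at 11.1 and 8.84 FPKM, hspb6 at 18.6 and 17.6 FPKM, and hspb8, which works with Bag3 in muscle, at 11.0 and 12.3 FPKM. The hspb3 row shares its region with arl15a, at 1.93 FPKM in wild type and 0.377 FPKM in the mutant. Among muscle genes, the 21 fast muscle rows had a median difference of -0.05, with 1 row, the calcium release channel gene ryr1b, lower by the 2-fold rule at 12.0 and 5.04 FPKM. ryr1b shares its region with another row, and over rows alone in their region 0 fast muscle rows passed and the median was 0.05. With a pseudocount of 5 FPKM 0 passed as well. Of the 21 fast muscle rows 9 were above 0 and 12 below. The listed fast myosin heavy chains were lower in the mutant library, myhz1.1 by 1.33-fold, myhz1.2 by 1.40-fold and myhz2 by 1.35-fold. So was myhz1.3, by 1.66-fold, whose region is shared with another row. The 10 slow muscle and heart rows had a median of 0.05, or -0.05 without the filter on low values, with none past 2-fold. Their part in the levels of small heat shock proteins was not tested.

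The alpha crystallins are small heat shock proteins under another name. cryaa, a lens protein, was at 51.6 FPKM in wild type and 37.5 FPKM in the mutant, 1.38-fold lower. cryabb was at 0.593 and 0.478 FPKM, and cryaba was listed at 0 in both libraries. The 14 lens markers had a median of -0.20 and summed to 1.14-fold less in the mutant, and none of the 14 was at 0.

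The mitochondrial chaperonin was higher in the mutant library, chiefly through its lid. hspe1 (Hsp10), the ring that closes the folding chamber, was at 222 FPKM in wild type and 330 FPKM in the mutant, 1.49-fold higher. hspd1 (Hsp60), the chamber itself, was at 90.5 FPKM in wild type and 98.4 FPKM in the mutant, 1.09-fold higher. The 2 rows lie 232 bases apart on chromosome 9, an arrangement that in mammals goes with a shared promoter. The ratio of hspe1 to hspd1 was 2.45 in wild type and 3.36 in the mutant. In the authors' deposited table hspe1 had a p-value of 0.0565, next after the 3 rows past 2-fold. Its difference of 0.57 was the largest of any chaperone row above 100 FPKM.

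**Figure D2:**
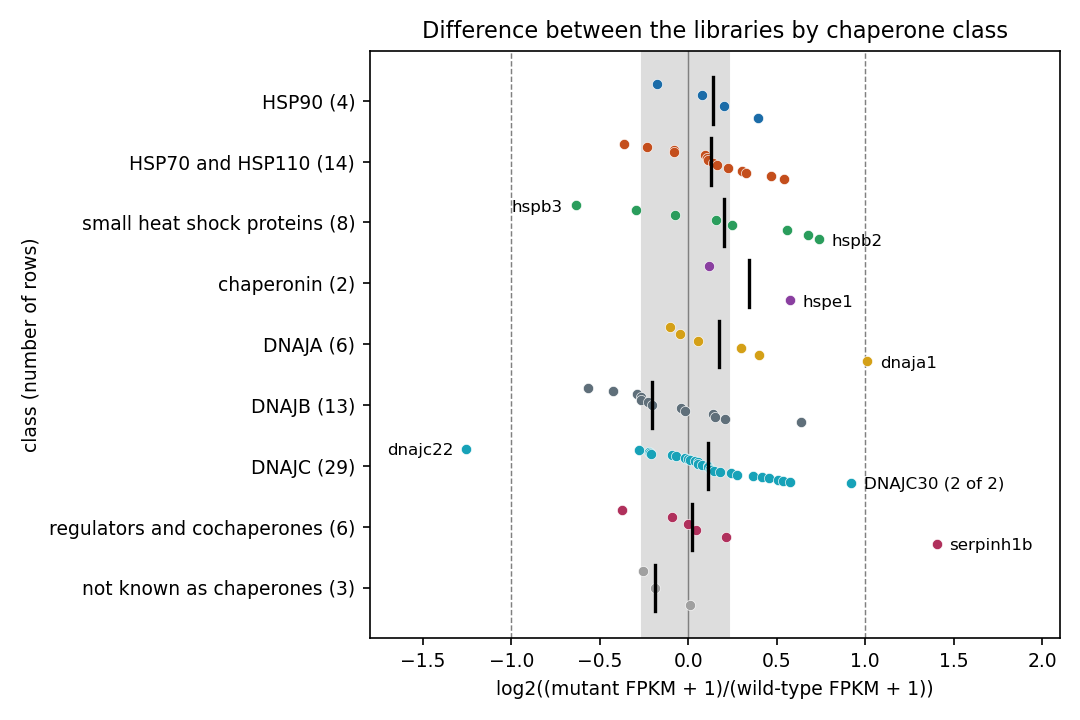
Difference between the libraries, log2((mutant FPKM + 1)/(wild-type FPKM + 1)), on the horizontal axis for each row, by chaperone class with the number of rows. Black bars are class medians, dashed lines mark 2-fold, and the grey band spans the quartiles of all 19327 rows, from -0.26 to 0.23. Height within a class only keeps points apart. The class medians run from -0.21 for DNAJB to 0.35 for the chaperonin, and 3 points lie beyond the dashed lines.

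The J proteins are the largest branch, with 48 rows, a median of 0.05, and 28 rows above 0 against 20 below. Their 3 types carry the J domain with different companions, type A with a zinc-binding region, type B with a stretch rich in glycine and phenylalanine, and type C with neither of these in common. The medians were 0.17 for the 6 type A rows, -0.21 for the 13 type B rows and 0.11 for the 29 type C rows.

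Type A rows other than dnaja1 were within 2-fold. The abundant partners of cytosolic HSP70 were level, with dnaja2 at 86.1 FPKM in wild type and 89.4 FPKM in the mutant and dnaja2l at 54.6 and 52.8 FPKM. These stood more than 10 times above dnaja1 in wild type per unit of length. DNAJA4 was at 7.48 FPKM in wild type and 10.2 FPKM in the mutant, 1.36-fold higher. The mitochondrial form was split between dnaja3a, at 21.0 and 19.5 FPKM, and dnaja3b, at 4.37 and 5.59 FPKM, in opposite directions. The dnaja3b row shares its region with vasna, at 8.21 and 7.97 FPKM, so its level and direction are less certain. The summed level of the type was 177 FPKM in wild type and 185 FPKM in the mutant.

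Type B was the class of J proteins with the lower median, and 9 of its 13 rows were below 0. The classic partners of stress-induced HSP70 were slightly lower in the mutant library, dnajb1a at 5.35 FPKM in wild type and 4.50 FPKM in the mutant, and dnajb1b at 8.89 and 7.23 FPKM. dnajb6a, which keeps aggregation-prone proteins soluble, was at 33.6 and 27.8 FPKM, while its paralog dnajb6b was at 23.3 and 26.0 FPKM. The dnajb1b and dnajb6a rows share their regions with weaker rows, such as trpa1a at 2.97 and 2.13 FPKM beside dnajb6a. dnajb2, known from neurons, was at 7.58 and 6.32 FPKM, dnajb4 at 6.14 and 5.94 FPKM, and dnajb5 at 2.32 and 1.72 FPKM. None of these 7 rows differed by more than 1.36-fold. The median of the class rested on weak rows and shared regions: it was -0.03 for its rows with a mean of at least 5 FPKM and -0.03 for its rows alone in their region.

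Type B genes of the endoplasmic reticulum went both ways. dnajb14, which assists the disposal of misfolded membrane proteins, was at 5.46 FPKM in wild type and 9.04 FPKM in the mutant, 1.66-fold higher. Its close relative dnajb12b was at 5.22 FPKM in wild type and 3.20 FPKM in the mutant, 1.63-fold lower, and dnajb12a at 17.9 and 19.7 FPKM. dnajb11, a cofactor of BiP, was at 19.3 and 22.4 FPKM. dnajb9b, induced by unfolded proteins, was at 8.99 FPKM in wild type and 6.43 FPKM in the mutant, 1.40-fold lower, and its paralog dnajb9a at 6.42 and 6.33 FPKM. The dnajb9b region is shared with mybpc1, a muscle gene, at 14.1 and 7.77 FPKM. It also holds a second dnajb9b row under the limit of 1 FPKM, at 0 and 0.543 FPKM.

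Type C rows serve narrow tasks, and 20 of 29 were above 0. Besides dnajc22, the largest difference was that of DNAJC30 (2 of 2), a mitochondrial J protein, at 1.12 FPKM in wild type and 3.01 FPKM in the mutant. Its plain ratio was 2.70 and its difference 0.92, within 2-fold on the scale of the rule because of its low level. dnajc24, a protein of diphthamide synthesis on translation factor 2, was at 1.86 FPKM in wild type and 3.27 FPKM in the mutant, 1.76-fold higher. dnajc28 was at 3.57 and 5.64 FPKM, 1.58-fold higher. All 3 are among the weakest rows, where all rows of the table varied most.

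Other type C genes act in the nucleus or in protein synthesis. dnajc2, the ribosome-bound partner of hspa14, was at 8.09 FPKM in wild type and 10.7 FPKM in the mutant. dnajc21, which takes part in ribosome assembly, was at 6.95 and 9.91 FPKM, 1.42-fold higher. dnajc9, a histone chaperone, was at 19.3 and 22.0 FPKM, and dnajc8, found with splicing factors, at 30.1 and 30.9 FPKM. The dnajc8 region holds 18 other rows and that of dnajc2 also holds pmpcb, so these levels are less certain.

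The J proteins of synaptic and coated vesicles were level as a group. The cysteine string proteins, which guard the release machinery at synapses, comprised dnajc5aa at 17.6 FPKM in wild type and 16.8 FPKM in the mutant, dnajc5ab at 40.6 and 34.8 FPKM, dnajc5ga at 22.7 and 23.6 FPKM, and dnajc5gb at 15.1 FPKM in both. dnajc6 (auxilin), which strips clathrin from vesicles, was at 5.67 and 7.08 FPKM. DNAJC13 (2 of 2), which acts on endosomes, was at 7.71 and 6.52 FPKM. The first 5 rows summed to 102 FPKM in wild type and 97.3 FPKM in the mutant.

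Type C genes of the mitochondrion included dnajc15, at 16.4 FPKM in wild type and 22.1 FPKM in the mutant, and dnajc19, at 34.7 and 34.3 FPKM, both related to the import motor of the inner membrane. dnajc11, tied to the organisation of the inner membrane, was at 17.4 and 20.7 FPKM. In the endoplasmic reticulum, dnajc1 was at 16.5 and 17.9 FPKM, dnajc3 (p58IPK) at 9.44 and 10.0 FPKM, and dnajc10, a reductase that prepares proteins for degradation, at 8.09 and 8.93 FPKM. All 3 genes of the endoplasmic reticulum were within 1.11-fold. The symbol dnajc7, an HSP70 and HSP90 cochaperone, stands on 2 rows that differed in direction, at 8.54 and 12.6 FPKM and at 15.8 and 14.7 FPKM. The remaining type C rows, dnajc4, dnajc12, dnajc18, dnajc25, dnajc27 and the pair of rows named DNAJC16, had ratios between 0.769 and 1.11.

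**Figure D3:**
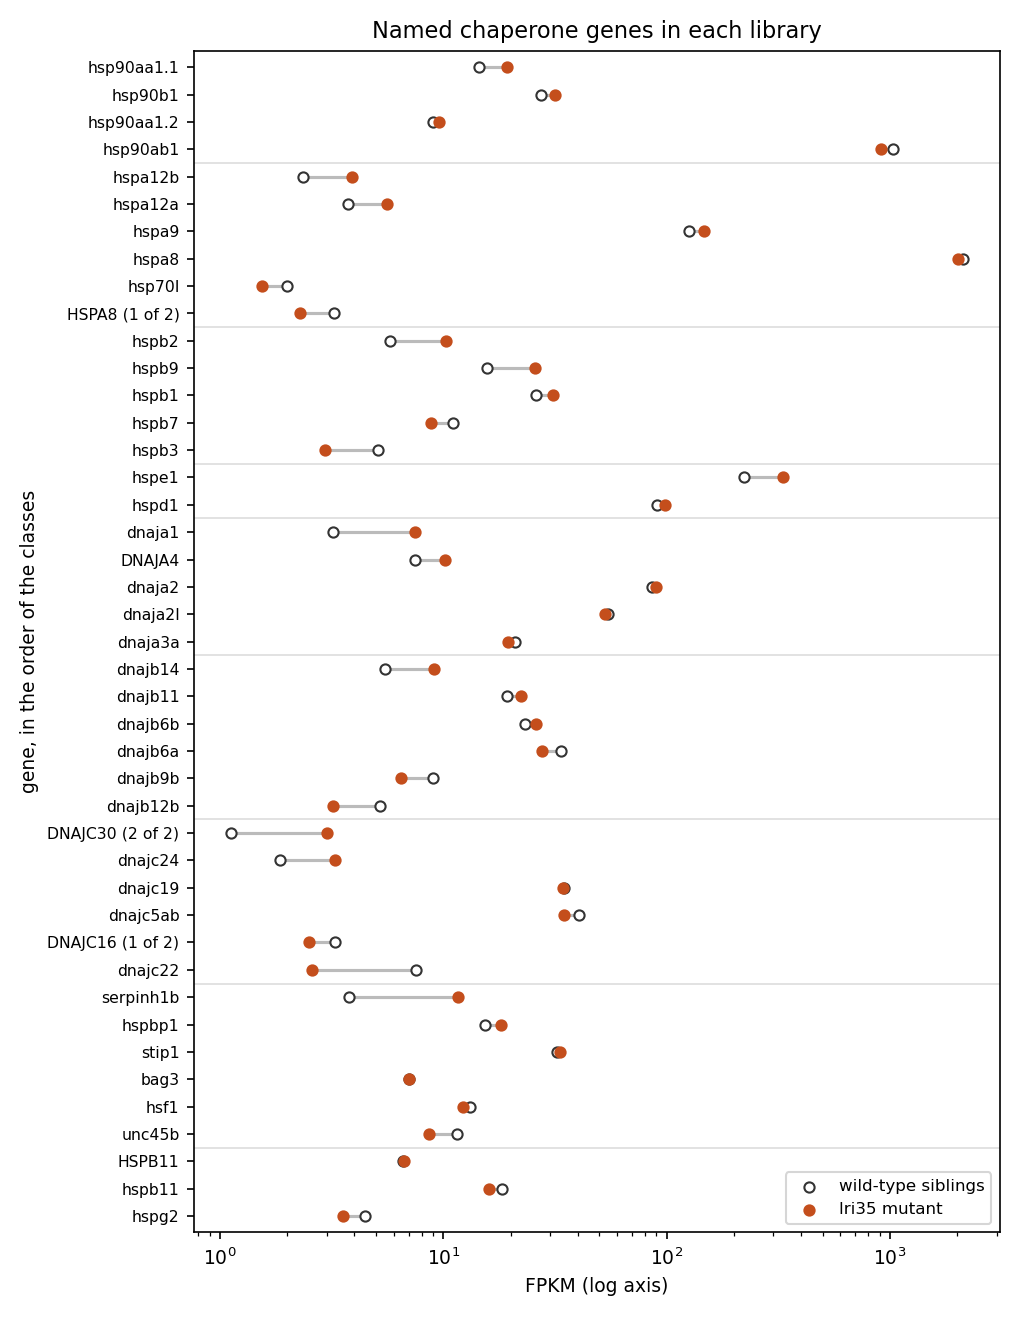
Levels of named chaperone genes in wild type (open circles) and mutant (filled circles), in FPKM on a log axis. They are ordered by class from HSP90 at the top to the rows set apart as not known as chaperones at the bottom. That last class is by deposited symbol and includes the hspb11 row now named hspb9l. A grey line joins the 2 libraries of a gene. The longest lines are those of serpinh1b, dnajc22, DNAJC30 (2 of 2) and dnaja1, while bag3, dnajc19, stip1 and hspa8 have circles that touch.

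Regulators and cochaperones other than serpinh1b were near level. hsf1, the transcription factor of the heat shock response, was at 13.1 FPKM in wild type and 12.2 FPKM in the mutant. bag3, which links HSP70 to autophagy and is itself induced by stress, was at 7.05 and 7.04 FPKM. stip1 (Hop), which passes substrates from HSP70 to HSP90, was at 32.3 and 33.3 FPKM. The nucleotide exchange factor hspbp1 was at 15.4 and 18.0 FPKM. unc45b, the myosin chaperone that works with hsp90aa1.1 in zebrafish muscle, was at 11.5 FPKM in wild type and 8.62 FPKM in the mutant, 1.33-fold lower, whereas hsp90aa1.1 was 1.34-fold higher. These 2 partners of myosin folding stood apart in direction, within 1.5-fold each.

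By deposited symbol, 3 rows were set apart as carrying the name without being known as chaperones, and for 1 of them the current name differs. hspg2 encodes perlecan, a proteoglycan of basement membranes, and was at 4.45 FPKM in wild type and 3.56 FPKM in the mutant. HSPB11, whose human counterpart is a component of intraflagellar transport, was at 6.62 and 6.68 FPKM. Another row named hspb11 carries the current name hspb9l, a name of the small heat shock protein series, and was at 18.3 and 16.0 FPKM. Only its deposited symbol placed it here, so its listing as not known as a chaperone is doubtful. With it counted among the small heat shock proteins their median was 0.15 instead of 0.20.

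Grouped by compartment, a grouping chosen after the values were seen, mitochondrial chaperones stood highest. Their 9 rows had a median of 0.24 with 7 above 0, and summed to 533 FPKM in wild type and 681 FPKM in the mutant, 1.28-fold higher, most of it from hspe1. The 13 rows of the endoplasmic reticulum had a median of 0.14 with 10 above 0, and summed to 168 and 193 FPKM. Both groups hold only the genes described above for that compartment and need not be complete. The 10 genes picked as heat inducible were hsp70l, hsp70.2, hsp70.3, hsp90aa1.1, hsp90aa1.2, dnajb1a, dnajb1b, hspb1, bag3 and serpinh1b. They had a median of 0.04, with 5 above 0 and 5 below, and serpinh1b was the only one past 2-fold. The pick is not complete and left out dnaja1, the other row higher by the 2-fold rule. Its even split therefore does not describe heat-inducible genes as a whole.

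Chaperone machinery with other names was examined in the same way. Among 15 rows of the cytosolic chaperonin and of prefoldin, which fold actin and tubulin, none passed 2-fold, the median was 0.05 and 13 were above 0. These rows all averaged above 41 FPKM, and all rows averaging 20 FPKM or more had a median of 0.03. Their most abundant row, whose current name is cct2, was at 212 FPKM in wild type and 219 FPKM in the mutant, the highest difference was that of pfdn6 at 35.3 and 54.3 FPKM, and the lowest that of cct4 at 158 and 145 FPKM. Among 26 rows of HSP90 and HSP70 cochaperones none passed either, with a median of 0.08. With a pseudocount of 0.1 FPKM, however, 2 of these rows were higher, and 951 of all 19327 rows were. The highest there was bag2, which restrains the degradation of HSP70 clients, at 5.37 FPKM in wild type and 11.1 FPKM in the mutant. cdc37l1, a relative of the HSP90 cochaperone Cdc37, was at 1.46 and 3.03 FPKM, and its plain ratio of 2.08 was like that of bag2, 2.06. The lowest was BAG6 (2 of 2) at 7.61 and 6.08 FPKM, and the most abundant smyd1a, a myosin chaperone of muscle, at 139 and 132 FPKM.

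The heat shock factors and their binding proteins comprised 5 rows with a median of 0.22, of which 1 was lower in the mutant library by the 2-fold rule and none higher. That row is labelled HSBP1 but carries the current name HSBP1L1, and the current name HSBP1 is that of hsbp1a. The row labelled HSBP1 was at 5.06 FPKM in wild type and listed at 0 in the mutant, which can be a failed estimate. Its mean is under 5 FPKM, so 0 rows passed at that limit. hsbp1a was at 40.7 and 61.5 FPKM, hsbp1b at 91.2 and 92.1 FPKM, hsf2 at 25.8 and 30.2 FPKM, and hsf4, the heat shock factor of the lens, at 2.31 and 4.40 FPKM. The hsf4 row shares its region with another row, so its low level is less certain. Both binding protein genes with high levels were thus level or higher in the mutant library.

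Among 11 further mitochondrial chaperones and proteases none passed 2-fold and the median was 0.10, which turned to -0.05 over rows alone in their region. grpel1, the nucleotide exchange factor of hspa9, was at 57.5 FPKM in wild type and 79.4 FPKM in the mutant, 1.38-fold higher. clpp, the matrix protease, was at 34.8 and 55.2 FPKM, 1.59-fold higher, and the row with the current name clpb was lowest at 1.997 and 1.104 FPKM. Among 12 further chaperones of the endoplasmic reticulum none passed and the median was 0.21. p4hb, a protein disulfide isomerase that is also a subunit of prolyl hydroxylase, was at 63.3 and 72.9 FPKM, sdf2 highest at 19.0 and 28.2 FPKM, and pdia4 lowest at 14.7 and 12.4 FPKM. None of these 23 rows reached the difference of serpinh1b.

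Because Hsp47 serves collagen, the collagens and their modifying enzymes were set beside serpinh1b. Of 20 rows 1 was higher by the 2-fold rule (2.95% of all rows were) and none lower (3.22% of all rows were). The median was 0.15, and 16 rows (80%) were above 0, against 49.1% of all rows. The paralog serpinh1a, with a difference of 0.48, is counted in this list. The most abundant collagen, col1a1a, was at 271 FPKM in wild type and 267 FPKM in the mutant, and it shares its region with another row. Among the other collagens, col1a1b was at 135 and 150 FPKM, col2a1b at 31.1 and 34.3 FPKM, and col11a2 at 32.7 and 38.1 FPKM, while col5a1 was at 29.3 and 26.4 FPKM. None of these 5 differed by more than 1.17-fold. The row past 2-fold was P4HA1 (1 of 3), a prolyl hydroxylase with the current name p4ha1a, at 0.735 and 2.75 FPKM. With a pseudocount of 5 FPKM 0 rows of the list passed. PLOD3 (2 of 2), a lysyl hydroxylase, was at 6.65 FPKM in wild type and 13.0 FPKM in the mutant, 1.95-fold higher. A row named plod3, under the mean of 1 FPKM, was at 0.299 and 0.346 FPKM. Among other modifying enzymes, the row deposited as p4ha1a was at 1.34 and 2.37 FPKM and p4ha2 at 1.45 and 2.21 FPKM. That p4ha1a row shares its region with other rows, so its low level is less certain. plod2 was at 7.42 and 8.69 FPKM, crtap at 15.8 and 16.8 FPKM, and p4ha1b at 2.95 and 2.48 FPKM. The lowest was leprel1, at 6.89 and 5.88 FPKM. The list summed to 925 FPKM in wild type and 975 FPKM in the mutant. Among its rows under the mean of 1 FPKM, both rows named col5a3a had 0 FPKM for wild type and no more than 0.101 FPKM for the mutant.

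**Figure D4:**
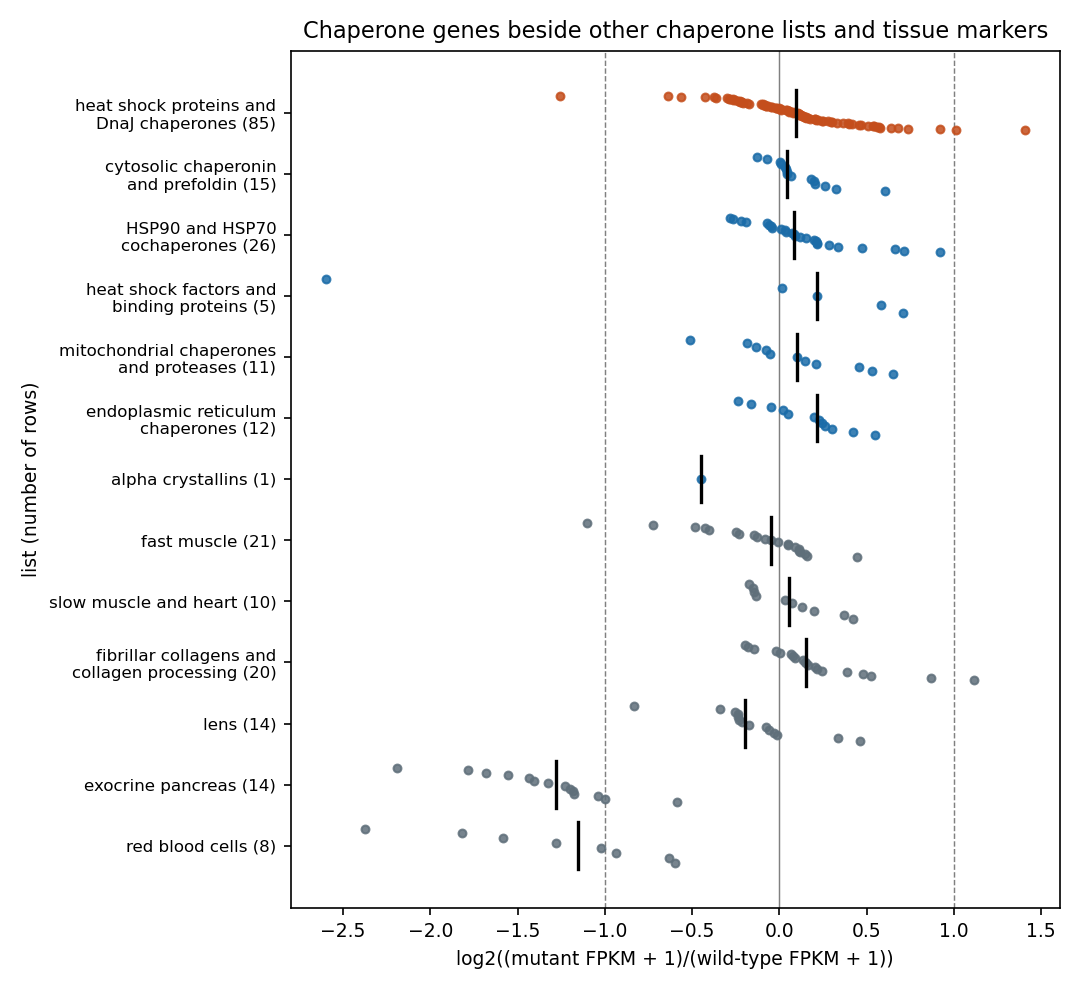
Difference between the libraries, log2((mutant FPKM + 1)/(wild-type FPKM + 1)), for the 85 chaperone rows (top), other chaperone lists (blue) and tissue marker lists (grey), with the number of rows of each. Black bars are medians, dashed lines mark 2-fold, and height within a list only keeps points apart. The chaperone lists other than the single alpha crystallin have medians from 0.05 to 0.22, whereas the medians of exocrine pancreas and red blood cell markers are -1.28 and -1.15. Those marker lists were chosen because earlier results of these data had them lower.

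The tissue lists that stood lowest differed between the libraries by more than any chaperone list. Of 14 exocrine pancreas rows 13 were lower by the 2-fold rule and none higher, and of 8 red blood cell rows 5 were lower and none higher. Of all rows, 3.22% were lower by this rule. Both lists were chosen because earlier results of these data had them lower, so this contrast was set by that choice. try, a trypsin and the most abundant pancreas row, was at 2719 FPKM in wild type and 1159 FPKM in the mutant, and alas2, which starts haem synthesis in red cells, at 17.5 and 2.58 FPKM. No pancreas row was at 0 in either library, whereas 2 globin rows under the limit of 1 FPKM were at 0 for wild type. Of these, hbbe3 had 1.75 FPKM in the mutant and a second row of hbae1 had 0.743 FPKM, so that without the filter 1 red blood cell row was higher. For chaperones of the endoplasmic reticulum the medians were 0.14 in the grouping chosen after the values were seen and 0.21 in the further list. What part the makeup of the larvae had in any chaperone level was not tested.

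Besides the 85 rows, 11 rows carried a fitting symbol but fell under the limit of 1 FPKM. dnajc17, DNAJC13 (1 of 2), hspb12 and DNAJC11 (2 of 2) were listed at 0 in both libraries. hspbap1 was at 0.275 FPKM in wild type and 0.663 FPKM in the mutant, and a second row of dnajb12b at 0.358 and 0.541 FPKM. The others were a second row of dnajb9b, at 0 and 0.543 FPKM, the flagellar gene dnajb13, and the 3 rows named above. Further rows have a current name that fits although the deposited symbol does not, and 2 of these averaged 1 FPKM or more. prkri, now dnajc3b, was at 5.22 FPKM in wild type and 6.81 FPKM in the mutant, and si:ch211-199o1.2, now hspa1b, at 0.951 and 1.49 FPKM. Neither passed 2-fold. Of the others, a row labelled mcm5, now hsp70.1, was at 0.517 and 0.502 FPKM, and the rows now named hspa12a.1 and hspa12a.2 were listed at 0 in both libraries.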

How the data were processed

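Expression was measured by RNA sequencing in 1 library per genotype, each from 20 pooled whole larvae. RNA was purified on columns and made into Illumina libraries, per the labels' protocols. CASAVA, Bowtie and the Zv9 build are named, without versions, per the submitters' processing notes. The counting tool, the annotation and the handling of multiply mapping reads are not stated in the labels.

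The authors deposited 1 table with a level for each library, a test status, a p-value and a q-value per gene. The levels were read as FPKM from the layout of the deposited table, since no label states the unit. p-values and q-values are the authors' own, copied from the deposited table. The deposited log2 fold column held 2246 infinite or erroneous cells and was not used.

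Rows were kept apart, rows averaging 1 FPKM or more were used, and differences were log2((mutant + 1)/(wild type + 1)) with a 2-fold rule and a pseudocount of 1 FPKM. No test was run, because there is 1 library per genotype. FPKM values carry no counts, so no counting interval or detection limit is given. Levels depend on gene length and on how reads of near-identical genes were assigned: 18 of the 85 rows share a region with other rows, and 67 are alone, with a median difference of 0.11. Coordinates follow the deposited regions (Zv9), and no exon or UTR annotation was used here. Current symbols were matched by gene ID for 76 rows.

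The genes and all lists were chosen with earlier results of these data known. Named genes are all rows past 2-fold, the 2 highest, the 2 lowest and the 2 most abundant of each class, the 5 genes added by name, and the highest, lowest and most abundant row of each other list; other genes were named after their values were seen. Promoter and protein sequences were not used here. The arithmetic was checked on simulated data with shifts well past 2-fold and little noise. That check could hardly fail, so it does not bear on the differences reported here. Python 3.11.15, pandas 2.3.3, numpy 2.4.6 and matplotlib 3.10.9 were used.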

Additional observations from a re-analysis of the deposited data

How the results depend on the processing

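Under 11 alternatives, 3 of them chosen after seeing the data, none of the 3 differences past 2-fold reversed. That outcome was set in advance: the alternatives changed pseudocount, filter, threshold, rows or, slightly, library scale, none of which could reverse such ratios. It therefore does not show how firm the 3 differences are. With a pseudocount of 5 FPKM, 0 of 85 chaperone rows were higher and 0 lower by the 2-fold rule, and 96 and 130 of all 19327 rows were. Under a 1.5-fold threshold 6 chaperone rows were higher (7.06%, against 8.03% of all rows) and 2 lower (2.35%, against 9.38%), and 1552 and 1813 rows of the whole table were. A pseudocount of 0.1 FPKM added DNAJC30 (2 of 2), for 3 of 85 rows higher and 1 lower, beside 951 and 1088 of all 19327 rows. A mean of at least 5 FPKM left 159 and 198 of 11607 rows (1.37% and 1.71%). In the other alternatives the same 3 rows, serpinh1b, dnaja1 and dnajc22, passed. The chaperone median ranged from 0.07 with a pseudocount of 5 FPKM to 0.13 with totals taken without the 50 most abundant rows. The DNAJA median went from 0.17 to 0.05 at a mean of at least 5 FPKM, and that of small heat shock proteins from 0.20 to 0.40 over rows alone in their region. Over such rows the medians of further mitochondrial chaperones and of fast muscle turned from 0.10 to -0.05 and from -0.05 to 0.05. In the cochaperone list 2 of 26 rows were higher with a pseudocount of 0.1 FPKM, beside the same 951 of all 19327 rows. No paired analysis was possible because each genotype has 1 library. For the same reason no library could be left out, and no value has a replicate error.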
